A study of Ovis aries with 8 samples.

Results

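In cultured sheep muscle stem cells, 70 genes had more messenger RNA in every library transfected with a microRNA mimic than in any library transfected with an antagomiR. They were chosen by their levels in CPM (a gene's count relative to the total of its library, with no other scaling). A gene had to average 10 CPM or more over the 8 libraries, and its lowest level among the 4 mimic-type libraries had to be at least 1.3 times its highest level among the 4 antagomiR-type libraries. Of 20921 genes in the table, 10305 met the first condition and 70, or 0.679% of those, met both. The difference between the types is therefore how the genes were chosen, and it is described below without a test.

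The cells were primary skeletal muscle satellite cells of Suffolk x Texel sheep, grown in medium with 20% fetal bovine serum and were transfected by lipofection once 60% confluent, with RNA taken 4 days later. There were 4 groups of 2 libraries. The antagomiR type held a control antagomiR and an antagomiR against miR-22-3p at 500 nM. The mimic type held a control mimic and a mimic of miR-127 at 100 nM. The labels give no concentration for either control, no untransfected cells, and no word on whether the libraries of a group stem from different animals. The p-values below therefore reflect the spread among these libraries, which may be technical. In this design the type of oligonucleotide, its concentration and the handling of each arm cannot be told apart.

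Satellite cells lie beside the muscle fibre and are its source of new nuclei after injury. A microRNA guides Argonaute proteins to partly matching messenger RNAs, which are then translated less and degraded faster. A mimic is a synthetic duplex whose guide strand is loaded into Argonaute, whereas an antagomiR is a chemically modified RNA complementary to a microRNA that keeps it from its targets. Control versions of both are transfected in the same way and usually carry a sequence without intended target.

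The 8 libraries held between 26637300 and 35843926 counts. The genes are known here only by Ensembl identifier: none of the 20921 identifiers is in the RefSeq sheep table used for names (0 matched), so no symbol, position, function, sequence or cell type marker could be attached to them, and few identifiers are printed. Log2 CPM correlated across genes at r = 0.985 between the miR-127 mimic libraries and at 0.988 to 0.990 within the other groups. On the second principal component of all genes miR-127 mimic replicate 1 lay at -30.4 and replicate 2 at 10.4, where the other 6 libraries lay between -14.4 and 16.2. Without replicate 2 the test of the miR-127 mimic called 61 of all genes, against 0 with all libraries. Results that rest on 1 of the former are given without it below.

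The 70 genes were mostly of middle to high abundance. Their mean level ran from 11.3 to 708 CPM with a median of 66.8 CPM, against a median of 37.3 CPM for all 10305 genes of 10 CPM or more. The top quartile of those genes by level, above 77.6 CPM, held 31 of the 70, and the bottom quartile held 10. Each of the 70 had at least 152 counts in each library, and the smallest count of a gene in a library had a median of 1187. The counts were not independent reads, so counting error is larger than these numbers alone would give, and for the less abundant genes it can make up much of the spread between libraries. Among the counts of the 70 genes, between 20% and 28.6% in a library were odd, where about 50% would be odd for independent reads.

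The gap between the types was moderate and much alike across the genes. The mean of the 4 mimic-type libraries was from 1.40 to 2.13 times the mean of the 4 antagomiR-type libraries, with a median of 1.69 times, and 63 of the 70 genes had a ratio of 1.5 or more. The ratio on which they were chosen, lowest mimic-type over highest antagomiR-type level, had a median of 1.37 and a maximum of 1.67. The last genes inside the threshold had a ratio of 1.3033 and the first outside 1.2985, so the edge falls within a continuous range. At a ratio of 1.2 there were 174 genes, and at 1.5 there were 6.

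ENSOARG00000018828 had the largest ratio. Its level by library totals was 10.7 and 11.0 CPM with the control antagomiR and 11.3 and 11.2 CPM with antagomiR-22-3p. With the control mimic it was 20.1 and 18.9 CPM, and with the miR-127 mimic 28.5 and 21.0 CPM. The antagomiR-type libraries were nearly level, and miR-127 mimic replicate 1 stood above all others.

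ENSOARG00000007891 came next in ratio, at a much higher level. By library totals it stood at 130 and 152 CPM with the control antagomiR and at 158 and 148 CPM with antagomiR-22-3p. Its levels were 260 and 286 CPM with the control mimic, and 290 and 297 CPM with the miR-127 mimic. Within the antagomiR type its groups overlapped, and within the mimic type both treated libraries were above both controls.

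Some of the 70 genes were nearly equal in counts to another of them. The gene ranked the third by ratio had counts within 5% of those of ENSOARG00000007891 in all 8 libraries. With a tolerance of 2% in each library, 4 of the 70 genes fell into 2 pairs, with 5% 8 genes fell into 4 pairs, and with 10% 19 genes fell into 8 sets of up to 4 genes. The 70 genes then make 59 distinct profiles at the 10% tolerance. Genes in such a set may draw on the same reads, which was not tested, so the counts of genes below are not counts of independent measurements. At 2% none of the 70 (0) matched a gene of 10 CPM or more outside them. How often other genes match at 5% or 10% was not tested.

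**Figure D1:**
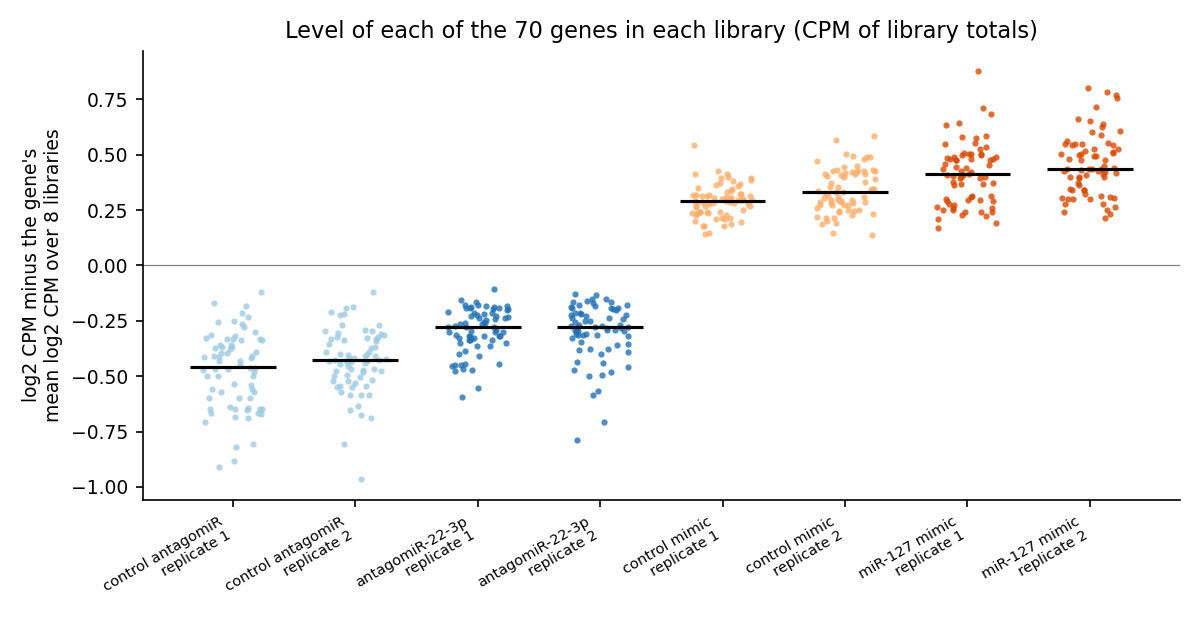
Level of each of the 70 genes in the 8 libraries. The y axis is log2 CPM (library totals) minus the gene's own mean over the 8 libraries, each point is a gene, and black bars are medians. The rule fixes the gap between the blue and orange libraries. Within each type the medians of the treated libraries lie above those of their controls, at -0.276 and -0.278 against -0.457 and -0.425 for the antagomiR type, and at 0.411 and 0.436 against 0.293 and 0.332 for the mimic type.

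The 70 genes together took 0.674% and 0.685% of all counts in the control antagomiR libraries. They took 0.773% and 0.772% in the antagomiR-22-3p libraries, so both treated libraries were above both controls. In the control mimic libraries their share was 1.13% and 1.18%, and with the miR-127 mimic it was 1.19% and 1.27%. The 4 groups thus ran in 1 order with no overlap by library totals. The step between the types was the largest, and it is the one the rule imposes. On the first principal component of all genes tested, the groups ran in the same order without overlap. The libraries lay at -23.4 and -22.5 (control antagomiR), -14 and -15.7 (antagomiR-22-3p), 10.6 and 12.2 (control mimic), and 25.7 and 27.2 (miR-127 mimic). This order was thus not particular to the 70 genes. The rule treats the libraries of a type alike and so does not set the direction of the steps within a type. It used the same 8 values, however, and its lowest and highest levels favour genes with little spread within a type. The tests and shares below are therefore not free of the rule, and how much it bears on their size was not tested.

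The order within the mimic type depended on scaling. TMM factors, which correct library totals for a shift in composition, were 1.003 to 1.107 in the antagomiR type and 0.9152 to 0.9786 in the mimic type. With them the summed level was 6082 and 6567 CPM for the control antagomiR and 7415 and 7697 CPM for antagomiR-22-3p. It was 11528 and 12443 CPM for the control mimic and 12109 and 13886 CPM for the miR-127 mimic, so that miR-127 mimic replicate 1 lay between the 2 control mimic libraries. The antagomiR groups did not overlap on either scale.

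**Figure D2:**
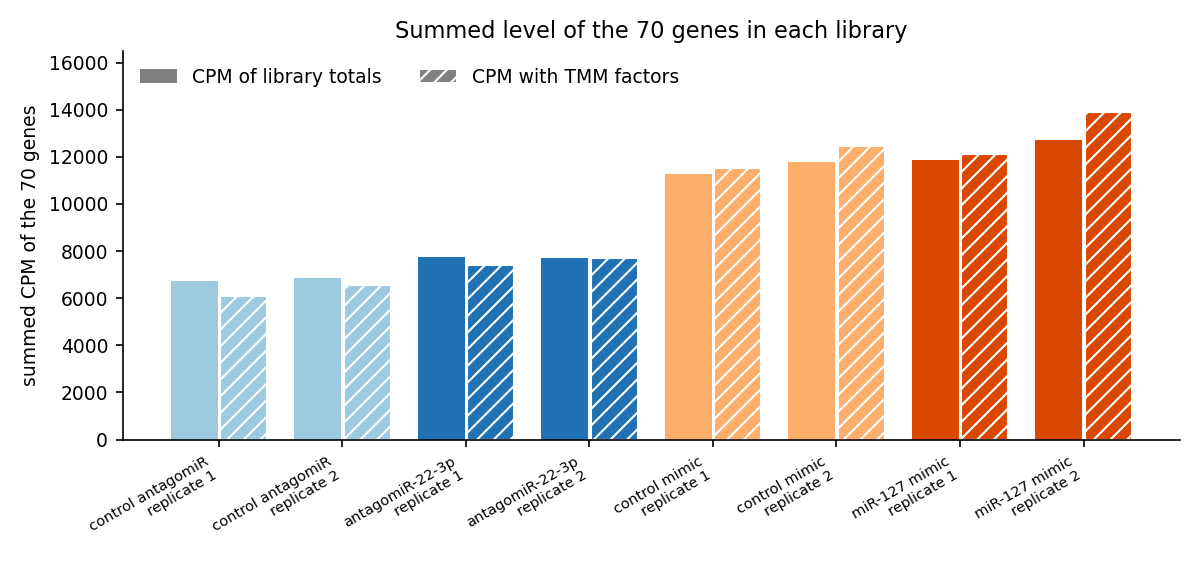
Summed CPM of the 70 genes in each library, by library totals (plain bars) and with TMM factors (hatched bars), with no averaging. By library totals the bars run from 6735 to 12708 CPM without overlap between groups, and with TMM factors the first miR-127 mimic library (12109 CPM) lies between the control mimic libraries.

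The rule also chose which library set each gene's limits. The lowest mimic-type level was in a control mimic library for 56 of the 70 genes, 40 of them in replicate 1 and 16 in replicate 2. It was in miR-127 mimic replicate 1 for 11 genes and in replicate 2 for 3. The highest antagomiR-type level was in an antagomiR-22-3p library for 56 genes, 29 in replicate 1 and 27 in replicate 2, and in a control antagomiR library for 14, 7 in each. In each type the limit was thus most often set by the group nearer to the other type. Given the order of the groups above, this is no separate result.

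The comparison within the antagomiR type asked whether inhibition of miR-22-3p moved these genes. None of the 70 was called at an adjusted p of 0.05 with edgeR's quasi-likelihood fit (0% of all 16353 tested were). Levels were nevertheless higher after antagomiR-22-3p for 67 of the 70, against 50.4% of all genes tested. The median log2 fold change of the 70 was 0.20, with a range from -0.09 to 0.53, against a median of 0.00 over all genes tested. At an unadjusted p under 0.05, 28 of the 70 were higher and 0 lower, where 3.97% of all genes tested were higher and 1.06% lower. Among genes of 10 CPM or more, which these all are, the shares were 5.02% and 1.19%. Both treated libraries were above both controls (CPM with TMM factors) for 47 of the 70, or 67.1%, against 18.5% of the 10305 genes. Both were below for 0, against 19.2%. The rule favoured little spread within a type in the 70 and not in the other genes, so these shares are not a like comparison.

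Scaling changed the size of this difference but not its direction. By library totals 59 of the 70 were higher, against 36.2% of all genes. The median log2 fold change of the 70 was then 0.13 beside -0.07 over all genes. Without any 1 of the 8 libraries between 61 and 67 of the 70 were higher, against 49% to 52.3% of all genes. At an unadjusted p under 0.05 the count of higher genes among the 70 was 13 without control antagomiR replicate 1 (2.79% of all genes tested) and 14 without antagomiR-22-3p replicate 2 (2.42%). The median log2 fold change of the 70 was 0.168 without control antagomiR replicate 1 and 0.202 without antagomiR-22-3p replicate 2. It was up to 0.292 when another library was left out. DESeq2 called 5 of the 70, all higher, but gave an adjusted p for only 24 of them, since its filter left out the other 46. Over all genes it called 58 of the 1135 that had an adjusted p, or 5.11%.

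ENSOARG00000004311 and ENSOARG00000007880 had the smallest p of the 70 in this comparison, and they are 1 of the pairs with counts within 2%. With TMM factors ENSOARG00000004311 stood at 41.3 and 46.0 CPM with the control antagomiR and at 60.3 and 62.8 CPM with antagomiR-22-3p. Its mimic-type levels were 98.1 and 93.0 CPM with the control and 102 and 106 CPM with miR-127. The log2 fold change after antagomiR-22-3p was 0.50 (SE 0.09, n = 2 per group), with an unadjusted p of 0.00016 and an adjusted p of 0.65 by edgeR. DESeq2 gave no adjusted p for this gene or for ENSOARG00000007880, so its calls could not include them. The 4 groups did not overlap, and the step within the antagomiR type was larger than that within the mimic type. ENSOARG00000007880 had the same log2 fold change of 0.50 and adjusted p of 0.65 by edgeR. Its counts were near-identical, so it may not be a second measurement, which was not tested.

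In the other direction no gene of the 70 had a difference beyond its error. ENSOARG00000004400 stood at 24.6 and 22.3 CPM with the control and 23.3 and 21.6 CPM with the antagomiR, which gave a log2 difference of -0.07 (SE 0.11, edgeR adjusted p = 0.99). ENSOARG00000017437 stood at 15.9 and 18.7 against 18.1 and 14.3 CPM, with a log2 difference of -0.09 (SE 0.16, edgeR adjusted p = 0.99). In both genes the 2 groups overlapped, while their mimic-type levels, from 38.4 to 45.9 CPM and from 29.1 to 37.2 CPM, were above all of these.

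The comparison within the mimic type asked whether added miR-127 moved the same genes. Again none of the 70 was called at an adjusted p of 0.05 with edgeR's quasi-likelihood fit (0% of all 16353 tested were). DESeq2 also called none of them, against 0.263% of all genes tested. Levels were higher after the miR-127 mimic for 64 of the 70, against 50.3% of all genes tested. The median log2 fold change of the 70 was 0.13, with a range from -0.04 to 0.48, against a median of 0.00 over all genes tested. At an unadjusted p under 0.05, 10 were higher and 0 lower by edgeR and also by DESeq2. Of all genes tested, 3.41% were higher and 3.58% lower by edgeR, and 3.43% and 3.44% by DESeq2. Among genes of 10 CPM or more the shares were 3.92% and 3.57%. Both treated libraries were above both controls (CPM with TMM factors) for 27 of the 70, or 38.6%, against 18.6% of the 10305 genes. Both were below for 0, against 17.2%. Again the rule favoured little spread within a type in the 70 alone, so these shares are not a like comparison.

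These numbers leaned on miR-127 mimic replicate 2. Without it, 42 of the 70 were higher, with a median log2 fold change of 0.055, and 3 were higher and 1 lower at an unadjusted p under 0.05, where 4.15% of all genes tested were higher and 7.74% lower. By sign, 60% of the 70 were higher without that library, against 48.1% of all genes tested, whose median log2 fold change was -0.011. Without miR-127 mimic replicate 1, 67 were higher, with a median of 0.20, and 21 were higher at that p, against 3.51% of all genes. Without control mimic replicate 1 the count of higher genes also fell, to 54 of the 70 against 49.8% of all genes, with a median of 0.072. Without control mimic replicate 2, 69 were higher against 51.7% of all genes, with a median of 0.182. Each such fit leaves a group of 1 library, whose spread is taken from the other groups.

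ENSOARG00000016366 had the smallest p of the 70 in this comparison. With TMM factors it stood at 212 and 215 CPM in the control mimic libraries and at 266 and 257 CPM after the miR-127 mimic. In the antagomiR type it stood at 127 and 139 CPM with the control and at 133 and 139 CPM with antagomiR-22-3p. The groups were separate in the mimic type and overlapped in the antagomiR type. Its log2 fold change after the miR-127 mimic was 0.29 (SE 0.08, n = 2 per group), with an unadjusted p of 0.0046 and an adjusted p of 0.54 by edgeR.

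ENSOARG00000000856 had the next smallest p. Its level was 33.4 and 31.3 CPM with the control mimic and 39.4 and 49.4 CPM with the miR-127 mimic, and it lay between 17.8 and 21.2 CPM in the antagomiR-type libraries. Its log2 fold change after the miR-127 mimic was 0.46 (SE 0.14, adjusted p = 0.60 by edgeR). It was 0.28 without miR-127 mimic replicate 2, the higher of the treated libraries.

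No gene of the 70 was lower after the miR-127 mimic beyond its error. ENSOARG00000000348 stood at 63.2 and 78.5 CPM with the control mimic and at 66.9 and 71.6 CPM with the miR-127 mimic, which gave a log2 difference of -0.03 (SE 0.12, edgeR adjusted p = 0.99). ENSOARG00000001203 stood at 286 and 301 against 244 and 329 CPM, with a log2 difference of -0.04 (SE 0.12, edgeR adjusted p = 0.99). In both genes the levels of 1 group enclosed those of the other, and both signs turned without 1 library. The antagomiR-type levels of ENSOARG00000001203 were 139 and 136 CPM with the control and 175 and 182 CPM with antagomiR-22-3p, so its groups were separate there.

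**Figure D3:**
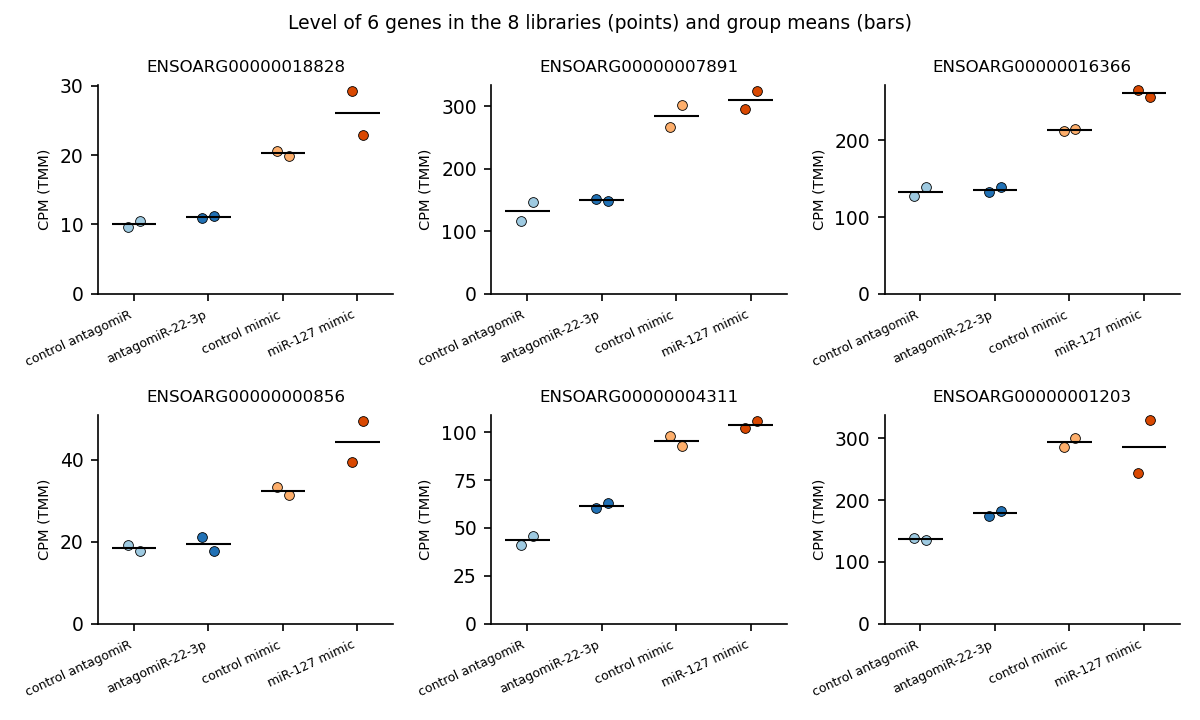
Level of 6 of the 70 genes in each library, in CPM with TMM factors, on axes that start at 0. Points are libraries and bars are means of the 2 libraries of a group. The groups of ENSOARG00000016366 are separate in the mimic type (212 and 215 against 266 and 257 CPM), those of ENSOARG00000004311 in both types, and those of ENSOARG00000001203 in the antagomiR type.

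The 2 comparisons within a type share no library, so their values can be set side by side. Of the 70 genes, 61 were higher after both treatments, 3 only after the miR-127 mimic, 6 only after antagomiR-22-3p, and 0 were lower after both, by the sign of the log2 fold change. Among the 10305 genes of 10 CPM or more, 23.3% were higher after both and 23.6% lower after both. At an unadjusted p under 0.05 by edgeR, 5 of the 70 differed in both comparisons, 5 in the mimic comparison alone, 23 in the antagomiR comparison alone and 37 in neither. Over all 16353 genes tested these shares were 0.501%, 6.48%, 4.54% and 88.5%. Both treated libraries were above both controls in both types (CPM with TMM factors) for 16 of the 70, against 3% of the 10305 genes. Without miR-127 mimic replicate 2 the mimic part of this pattern shrank as given above. The rule favoured little spread within a type in the 70 alone, so the shares in this paragraph are not a like comparison.

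**Figure D4:**
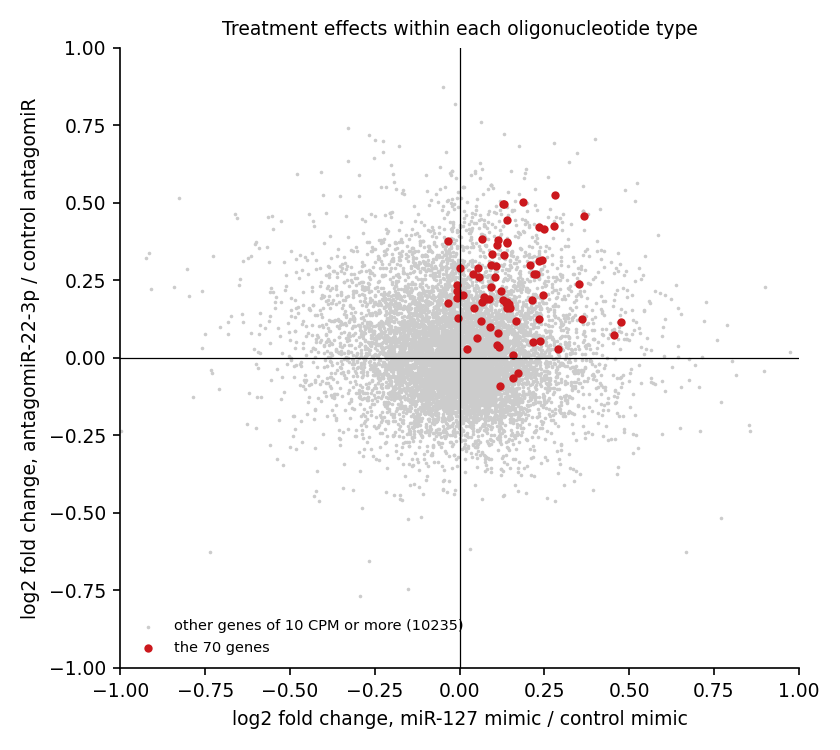
Log2 fold change of each gene of 10 CPM or more after antagomiR-22-3p (y axis) against that after the miR-127 mimic (x axis), from edgeR with TMM factors. Red points are the 70 genes, of which 61 lie to the upper right of the origin, and grey points are the other genes, with 22 beyond the axis limits of 1 and -1.

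The difference between the 2 treatment effects was tested in itself, which equals the change of the type gap from controls to treated cells. None of the 70 was called with edgeR's quasi-likelihood fit (0.00612% of all 16353 tested were) or with DESeq2 (0.0917%). At an unadjusted p under 0.05 by edgeR, 1 of the 70 had a larger effect of the mimic and 3 a larger effect of the antagomiR. Of all genes tested, 2.11% and 3.93% did. DESeq2 gave 0 and 4 of the 70, against 1.85% and 4.29% of all genes tested. The difference was negative for 52 of the 70, with a median log2 value of -0.10 against 0.00 over all genes. By library totals it was negative for 44 with a median of -0.06. It was positive for 25.7% of the 70 against 49.4% of all genes tested, and for 37.1% against 56.3% by library totals. Without miR-127 mimic replicate 2 it was positive for 18.6% against 47.9%, with a median of -0.20 for the 70. Without miR-127 mimic replicate 1 it was positive for 42.9% against 48.8%, with a median of -0.02. Without any 1 of the other libraries it was positive for 22.9% to 44.3% against 47.3% to 51.1%, with medians from -0.187 to -0.026. The rule used the type gap to choose the 70 alone, so these shares are not a like comparison. For ENSOARG00000004311 the difference was -0.37 (SE 0.12, adjusted p = 0.80 by edgeR), and its near-identical partner ENSOARG00000007880 had the same values at this rounding. For ENSOARG00000016366 it was 0.26 (SE 0.11, adjusted p = 0.80 by edgeR), and for ENSOARG00000000856 it was 0.38 (SE 0.20, adjusted p = 0.80 by edgeR). By group means of library totals, the control mimic stood at a median of 1.68 times the control antagomiR over the 70 genes, and the miR-127 mimic at a median of 1.65 times antagomiR-22-3p.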

How the data were processed

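Poly(A)-selected RNA of 8 cultures was sequenced on an Illumina NovaSeq, per the labels' protocols. Raw read counts per gene were deposited by the authors as 1 table with a column per library, without pooling or normalization. FastQC 0.11.8, Trim Galore 0.6.5, RSEM 1.3.3, featureCounts 2.0.2 and edgeR 3.34.1 are listed, with no role or order, per the submitters' processing notes. How multi-mapping reads were handled, the strand setting, the build and the annotation were not given in the sources used here. Columns were matched to samples by description, and the 2 miR-127 mimic columns, which share a description, by the experiment number in the titles.

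The members and lists were chosen with earlier results of these data known. Planned lists of symbols and markers could not be applied. Tests used R 4.3.3 and edgeR 4.0.16: the default expression filter (minimum count 10, minimum total 15) kept 16353 genes, the 70 included, TMM factors scaled the libraries, and 1 quasi-likelihood model with a mean per group was fitted to all 8 libraries (4 residual and 6.29 prior degrees of freedom). P-values were 2-sided and adjusted by Benjamini-Hochberg over all genes tested, with a call at 0.05. Standard errors are the fold change over the square root of F. With 2 libraries a group, intervals from counts would cover counting error only and none are given. Without symbols, the rule for named genes took the 2 genes with the largest ratio and, per test and direction, the 2 with the largest fold change among called genes or else the smallest p. Alternatives were RLE factors, library totals, DESeq2 1.42.0, other filters (none, or 4 or more libraries at 1 CPM), a replicate block, the compared libraries alone, an adjusted p of 0.1, leaving out each library, and other limits in the rule. The code was tested on simulated data.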

Additional observations from a re-analysis of the deposited data

How the results depend on the processing

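The number of genes that passed the rule depended on its settings. It was 174 with a ratio of 1.2 and 6 with 1.5, and 142 with TMM factors and 142 with RLE factors, all 70 included in each of the last 2. Leaving out 1 library gave 73 to 120 genes, with 120 without miR-127 mimic replicate 1 and 108 without antagomiR-22-3p replicate 1. In the opposite direction 54 genes passed by library totals and 21 with TMM factors. Leaving out a library cannot lower a gene's ratio. The TMM and RLE factors were all higher in the antagomiR type than in the mimic type, so they raise the ratio of each gene. The direction of these shifts thus follows from the settings, and their size was not tested further.

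With 2 libraries in each group, the count of called genes among the 70 was 0 under the alternatives run for each test, with 1 exception. It was 5 by DESeq2 after antagomiR-22-3p, where 5.11% of all genes with an adjusted p were called. Leaving out a library leaves 1 library in a group, so calls of those fits are not counted here. The median log2 fold change of the 70 ran from 0.055 to 0.199 after the miR-127 mimic, from 0.168 to 0.292 after antagomiR-22-3p and from -0.202 to -0.023 for the difference between the effects when 1 library was left out. By library totals it was 0.13 after antagomiR-22-3p. No median turned its sign under these settings. Signs turned for 4 named genes with small differences when 1 library was left out: values ran from -0.18 to 0.13 for ENSOARG00000000348 and from -0.26 to 0.16 for ENSOARG00000001203 after the miR-127 mimic, and from -0.13 to 0.013 for ENSOARG00000004400 and from -0.27 to 0.075 for ENSOARG00000017437 after antagomiR-22-3p.

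Same-numbered libraries share only a number in the labels. Their deviations from group means correlated across genes at r = 0.25 between the antagomiR groups and 0.08 between the mimic groups. With the replicate number as a block, 0 of the 70 were called in each test, and 13 after the miR-127 mimic and 33 after antagomiR-22-3p were higher at an unadjusted p under 0.05, against 3.68% and 4.89% of all genes tested.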
